A study of Mus musculus with 14 samples.

Results

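Peaks of histone H3 acetylated at lysine 27 (H3K27ac) were compared between mouse medulloblastoma cells with and without Ezh2. Every H3K27ac peak listed for the control cells (7951 peaks) and for the Ezh2 knockout cells (10112 peaks) was taken, which gave 18063 of the 201448 enriched regions in the 11 lists of the series. The peaks came from chromatin immunoprecipitation followed by sequencing (ChIP-seq), in which an antibody pulls down the DNA wrapped around a marked histone and the recovered DNA is sequenced. They are described by width, by spacing, and by the clusters they form along the chromosome.

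Per the labels, both groups were tumour cells of the genotype p53-/-;p18-/-, and the knockout cells were in addition Ezh2-/-. The control cells are labelled Cas9, after the nuclease used for the knockout. The labels describe tumorspheres (floating cultures of tumour cells) that overexpress Myc, model Group 3 medulloblastoma, a cerebellar tumour of childhood, and have a mixed genetic background. Retroviral vectors were introduced, cells positive for both RFP and GFP were sorted and grown on, and they were placed with Matrigel in the cerebral cortex of CD-1 nu/nu mice, an immunodeficient strain, a site other than the cerebellum. The labels do not say whether the profiled cells were 1 clone or whether several mice were pooled. Each group held 1 library, so no difference has a replicate check, no p-value was computed, and a difference between the lists cannot be told apart from a difference between 2 libraries in depth or signal over background. The labelled cell type was not checked against marker genes, since no annotation of the files' genome build (mm9) was used here.

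Acetylation of H3 lysine 27, placed mainly by the acetyltransferases p300 and CBP, marks active promoters and active enhancers. Ezh2 is the catalytic subunit of Polycomb repressive complex 2, which trimethylates the same lysine (H3K27me3) at silenced genes, and a single lysine cannot carry both marks at once. Trimethylation of H3 lysine 4 (H3K4me3) marks promoters, and promoters with both H3K4me3 and H3K27me3 are called bivalent and are common at developmental genes. Long groups of H3K27ac peaks, joined across gaps of up to 12.5 kb, are widely used to find dense regulatory regions, and the same distance was used here.

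Peaks with 1 bp or more in common with a peak of the other list are called partnered or overlapped, and the rest are called alone in their own list. The knockout list was 1.27 times as long as the Cas9 list (95% interval 1.23 to 1.31), and 2843 knockout peaks, 28.1% of that list, were called in the knockout alone. The Cas9 list had 685 such peaks, 8.62% of it. The longer list has more peaks that can lack a partner in the shorter one. Intervals on shares are Wilson intervals, those on medians are binomial intervals for order statistics, and all cover counting error only. The excess of knockout peaks was spread over the genome. The ratio of peak numbers ranged over the 19 autosomes from 1.15 on chromosome 13 to 1.35 on chromosome 19, with a median of 1.29, and it was 1.13 on the X chromosome (0.887 to 1.44). The intervals of single chromosomes were wide, and those of chromosomes 13 (0.994 to 1.34) and 19 (1.15 to 1.58) overlapped.

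The peaks missing from the other list were mostly low in their own list. The authors gave every peak a score of unstated meaning, so it was used only to rank peaks within a list, here in deciles from 1 (highest scores) to 10. In decile 1 of the knockout list 0.692% of peaks lacked a Cas9 partner (7 of 1012, 0.335% to 1.42%). In decile 5 the share was 18.2%, and in decile 10 it was 74.6% (71.8% to 77.2%). No Cas9 peak in decile 1 (0 of 796, Wilson upper limit 0.48%) lacked a knockout partner, nor did any in deciles 2 and 3 (0 of 795 each). The share then reached 3.40% in decile 6 and 37.0% in decile 10 (33.7% to 40.4%). In every decile the knockout list, which is also the longer one, held the larger share of unpartnered peaks. With the knockout list trimmed to its 7951 highest scores the shares with a partner were close, at 83.2% of Cas9 peaks and 82.4% of knockout peaks. The median score of knockout-alone peaks was 13.8, against 22.8 for knockout peaks that had a Cas9 partner.

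**Figure D1:**
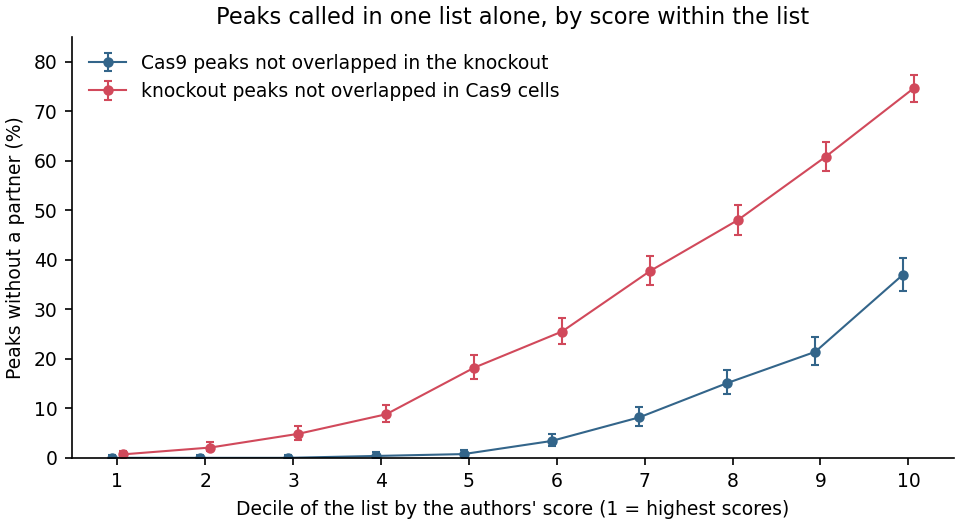
Share of peaks without an overlapping peak in the other list (percent, y axis) against the decile of the list by the authors' score (x axis, 1 holds the highest scores), with Wilson 95% intervals, for Cas9 peaks (blue) and knockout peaks (red). Both lines climb toward low scores, from 0 to 37.0% in Cas9 cells and from 0.692% to 74.6% in the knockout.

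Peak widths were nearly the same in both lists. The median was 384 bp (378 to 391) in Cas9 cells and 391 bp (384 to 397) in the knockout, the narrowest peak was 170 bp in both, and the widest were 3091 and 3066 bp. Peaks of at least 1 kb made up 4.83% of the Cas9 list (4.38% to 5.32%) and 4.76% of the knockout list (4.36% to 5.19%). Width and score rose together within each list, with Spearman's rho of 0.73 over 7951 peaks and 0.72 over 10112 peaks, a description across peaks of 1 library each. Peaks called in 1 list alone were narrow. Knockout-alone peaks had a median width of 260 bp (254 to 265) against 454 bp for knockout peaks with a partner, and Cas9-alone peaks had a median of 215 bp (209 to 221) against 405 bp. Of the knockout-alone peaks 16 of 2843 reached 1 kb, and of the Cas9-alone peaks 0 of 685 did.

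The widest peaks were held in common. The widest Cas9 peak, chr17:34256529-34259619 (3091 bp), met a knockout peak of 3066 bp that was the widest of its own list. The next, chr13:63664458-63667517 (3060 bp), met a peak of 2977 bp, and the third, chr15:85500189-85502836 (2648 bp), met a peak of 2443 bp. Of the 5 widest Cas9 peaks 4 met exactly 1 knockout peak, and the exception, chr8:11311630-11313956 (2327 bp), met 2. Every one of the 5 widest peaks of either list also overlapped H3K4me3 peaks of both cell types. Such an overlap was common, since 4.13% of all Cas9 peaks and 7.63% of all knockout peaks met no H3K4me3 peak of the same cells.

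Where a Cas9 peak and a knockout peak met each other and no other peak, their widths can be set side by side. There were 6704 such pairs, and their median width was 404 bp in Cas9 cells and 453 bp in the knockout. The median of the ratio within a pair, knockout over Cas9, was 1.05 (1.05 to 1.06), with 0.696 and 1.97 as the 5th and 95th percentiles. The knockout peak was the wider one in 4062 pairs (60.6%, 59.4% to 61.8%), the narrower one in 2607 and equal in 35. A ratio of at least 1.5 was seen in 858 pairs (12.8% of all pairs), and a knockout peak narrower by at least the same factor in 285 pairs (4.25%). The H3K4me3 lists of the same cells went the other way, with a median ratio of 0.901 over 10175 pairs (0.896 to 0.906) and 31.1% of pairs wider in the knockout. The centres of paired H3K27ac peaks lay a median of 29 bp apart, and 95% lay within 134.4 bp. The ratio was largest for pairs of middle width, at 1.08 for a mean width of 250 to 500 bp (1.06 to 1.09), and 1.02 for pairs of at least 1 kb (1.01 to 1.04).

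Single pairs changed far more. On chromosome 2 a Cas9 peak of 170 bp at chr2:90420504-90420673 lay inside a knockout peak of 1142 bp at chr2:90419871-90421012, a ratio of 6.72. On chromosome 1 a Cas9 peak of 203 bp at chr1:63320097-63320299 lay inside a knockout peak of 1081 bp, a ratio of 5.33. By score, the chromosome 1 peak stood in decile 9 of the Cas9 list and in decile 1 of the knockout list. The pair that narrowed most, at chr8:123608302-123609305, went from 1004 bp in Cas9 cells to 230 bp in the knockout, and the next, at chr17:86091141-86092369, from 1229 bp to 295 bp.

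Neighbouring peaks fell into 2 spacing ranges with few gaps between them. A gap is the stretch between a peak and the next one on its chromosome. Of 7930 gaps in the Cas9 list 15.3% were at most 500 bp long, with a median of 183 bp, and of 10092 gaps in the knockout list 16.1% were, with a median of 177 bp. Gaps of 0.5 to 2 kb made up 2.13% and 2.19%, and gaps of 2 to 5 kb 1.30% and 1.59%. The gaps longer than 500 bp had medians of 106.8 kb in Cas9 cells and 87.6 kb in the knockout. No gap was shorter than 51 bp in either list. The H3K4me3 lists had the same shape, with 21.4% and 21.2% of gaps at most 500 bp long.

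**Figure D2:**
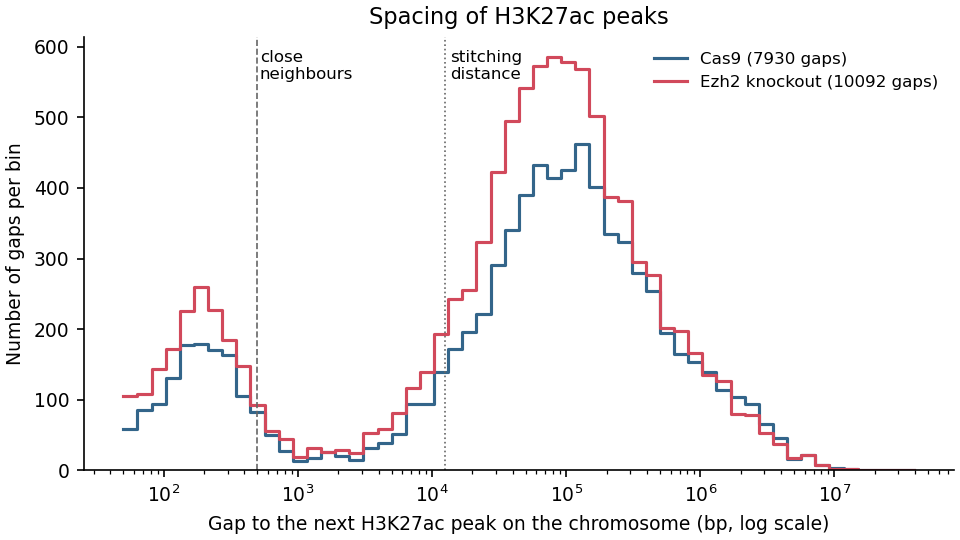
Number of gaps between neighbouring H3K27ac peaks (y axis) by gap length in bp (x axis, log scale), for the Cas9 list (blue) and the knockout list (red), with lines at 500 bp and at the stitching distance of 12.5 kb. Both lists have a first mode below 500 bp and a second near 100 kb.

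Most close neighbours, meaning peaks at most 500 bp apart, lay beside a promoter mark, as did most H3K27ac peaks of either list. The bases between them touched an H3K4me3 peak of the same cells in 91.5% of the 1213 Cas9 cases (89.8% to 92.9%) and in 82.2% of the 1627 knockout cases (80.3% to 84.0%). Both neighbours overlapped an H3K4me3 peak in 88.1% and 79.0% of cases, and the same one in 46.2% and 35.5%. Over all peaks, 4.13% of the Cas9 list and 7.63% of the knockout list met no H3K4me3 peak of the same cells. The mark was thus not particular to close neighbours. Close neighbours of 1 list were often not close neighbours in the other. Of the Cas9 cases 61.7% had a knockout peak for each neighbour, 15.9% met 1 knockout peak that covered both, in 20.4% only 1 neighbour was met, and in 2.06% neither was. Of the knockout cases 45.9% had a Cas9 peak for each neighbour, 12.2% met 1 joined Cas9 peak, in 29.4% only 1 was met, and in 12.5% neither was. A change in the number of peaks at a place can therefore be a peak that was split or joined. For this reason numbers are given below both for peaks and for sites, a site being a run of peaks no more than 500 bp apart. The Cas9 list held 6738 sites and the knockout list 8485.

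Peaks stood closer together in the longer list. The median distance to the nearest peak of the same list was 24.6 kb in Cas9 cells (22.6 to 26.2) and 20.6 kb in the knockout (18.9 to 21.9). The order turned when the knockout list was trimmed to its 7951 highest scores. The trimmed list had a median of 34.5 kb (32.8 to 36.3), and 11.9% of its gaps were at most 500 bp long. Only the knockout list was cut, and taking peaks out of a list cannot shorten the gaps of those that stay.

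Peaks with gaps of at most 12.5 kb were joined into clusters, first within each list. The Cas9 list gave 6131 clusters, of which 4697 held a single peak and 275 held at least 3, and the knockout list gave 7629, of which 5728 held a single peak and 402 at least 3. The largest held 12 peaks over 51.4 kb in Cas9 cells and 11 peaks over 37.0 kb in the knockout. Clusters of at least 2 peaks held 40.9% of Cas9 peaks (39.8% to 42.0%) and 43.4% of knockout peaks (42.4% to 44.3%). In the knockout list trimmed to equal number the share was 34.0% and the order the opposite, but only that list had lost peaks. Most clusters of at least 2 peaks in the full lists were small places. A single site of close neighbours made up 63.5% of the Cas9 clusters with at least 2 peaks (911 of 1434) and 62.7% of the knockout clusters (1192 of 1901). Counted by sites, 16.8% of Cas9 sites and 18.4% of knockout sites lay within 12.5 kb of another site.

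The peaks of both lists were then joined together with the same distance, which gave 7882 joint clusters. Cas9 and knockout peaks stood together in 5851 of them (74.2%, 73.3% to 75.2%), called shared clusters. Knockout peaks stood alone in 1770 clusters, 22.5% of the total (21.5% to 23.4%), and Cas9 peaks alone in 261, 3.31% (2.94% to 3.73%). Clusters of 1 list alone were small. Of the 1770 knockout-alone clusters 1590 held 1 peak, 157 held 2 and 23 held at least 3, and of the 261 Cas9-alone clusters 247 held 1 peak, 11 held 2 and 3 held 3. Trimming the knockout list to the Cas9 number brought the shares to 13.6% (12.9% to 14.5%) and 8.85% (8.21% to 9.53%), in the same order.

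**Figure D3:**
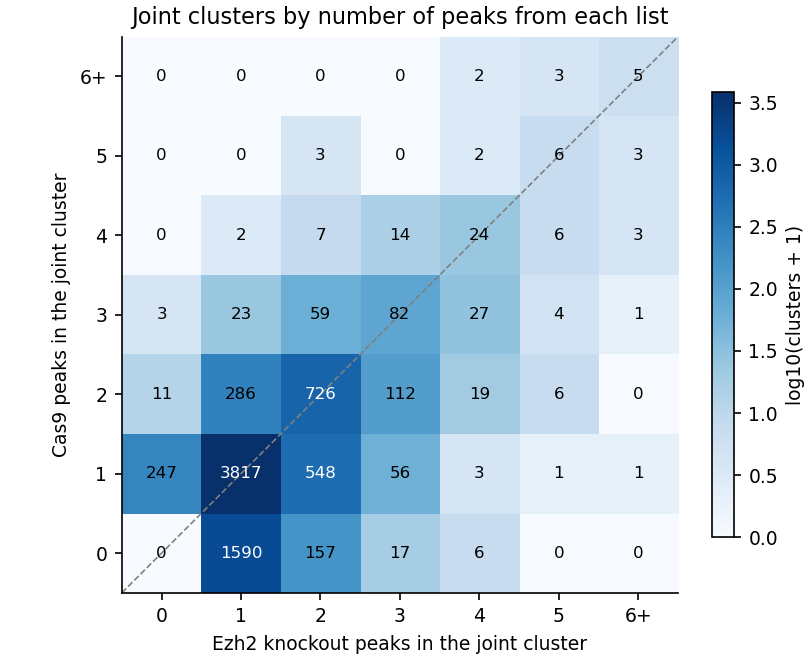
Number of joint clusters by Cas9 peaks (y axis) and knockout peaks (x axis) in the cluster, shaded by log10 of the number plus 1, with the dashed line where both numbers are equal. The cell with 1 peak from each list holds 3817 clusters, and the bottom row shows 1590 clusters with a single knockout peak and no Cas9 peak.

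Within shared clusters the number of peaks mostly stayed the same. It was equal in 4657 of 5851 (79.6%), higher in the knockout in 792 (13.5%, 12.7% to 14.4%) and lower in 402 (6.87%, 6.25% to 7.55%). Gains of at least 2 peaks were seen in 96 clusters (1.64%) and losses of at least 2 in 38 (0.649%). By sites, 277 clusters gained (4.73%) and 108 lost (1.85%), and 93.4% kept their number. Of the 792 clusters that gained peaks 233 gained a site (29.4%), and of the 402 that lost peaks 80 lost a site (19.9%). An equal number of sites does not show that the sites were the same ones. The order of gains and losses turned with lists of equal number, in which 6.76% of shared clusters had more knockout peaks (6.12% to 7.45%) and 11.2% had fewer (10.4% to 12.0%). That setting takes peaks out of the knockout list alone, so by construction it favours losses over gains.

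Gains and losses also differed with the number of Cas9 peaks in the cluster. Among clusters with 1 Cas9 peak 13.8% had more knockout peaks, and by construction none could lose and stay shared. Among those with 2 Cas9 peaks 11.9% gained and 24.9% lost, among those with 3 the shares were 16.3% and 41.8%, and among those with at least 4 they were 17.5% and 42.5%. Losses were thus more frequent than gains in every class with at least 2 Cas9 peaks. Grouping by the Cas9 number favours losses, since a cluster enters a high class through its Cas9 peaks.

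The 2 kinds of unpartnered peak lay at different distances from the other list. Of knockout-alone peaks 17.8% lay within 500 bp of a Cas9 peak, 12.3% at 0.5 to 12.5 kb, 40.2% at 12.5 to 100 kb and 29.7% farther away, and the median was 42.7 kb (39.4 to 46.0). Of Cas9-alone peaks 39.9% lay within 500 bp of a knockout peak and 8.76% beyond 100 kb, with a median of 3.19 kb (1.15 to 6.38). In joint clusters 30.4% of knockout-alone peaks (864 of 2843) shared a cluster with a Cas9 peak, against 59.4% of Cas9-alone peaks with a knockout peak (407 of 685). The other list is longer for Cas9-alone peaks, which shortens their distances.

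Knockout-alone clusters stood at H3K27me3 of Cas9 cells far more often than other clusters. Per the names of the deposited lists, H3K27me3 regions are islands, runs of enriched windows of 200 bp joined across gaps of 600 bp. A Cas9 H3K27me3 island overlapped 605 of 1770 knockout-alone clusters (34.2%, 32.0% to 36.4%), 180 of 5851 shared clusters (3.08%, 2.66% to 3.55%) and 4 of 261 Cas9-alone clusters (1.53%, 0.598% to 3.87%). H3K27me3 islands of the knockout itself overlapped 2.77%, 0.598% and 1.15% of the same classes. The 14107 islands of Cas9 cells cover 71.4 Mb and the 5312 islands of the knockout 18.6 Mb. Shared clusters with more knockout peaks overlapped Cas9 H3K27me3 in 10.1% of cases (8.19% to 12.4%), those with equal numbers in 1.89% and those with fewer in 2.99%. Among clusters of at most 2 kb the shares were 33.6% (31.4% to 35.8%) for the knockout-alone, 1.88% (1.55% to 2.29%) for the shared and 1.56% (0.607% to 3.93%) for the Cas9-alone class, so the shared class had a lower share there than over all lengths. With lists of equal number they were 38.6%, 2.82% and 0.797%. When only the upper 50% of scores in each list was kept, the knockout-alone share was 18.1% (16.0% to 20.5%). By construction, this setting counts a knockout peak as alone when its Cas9 partner fell in the lower part of the Cas9 list.

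**Figure D4:**
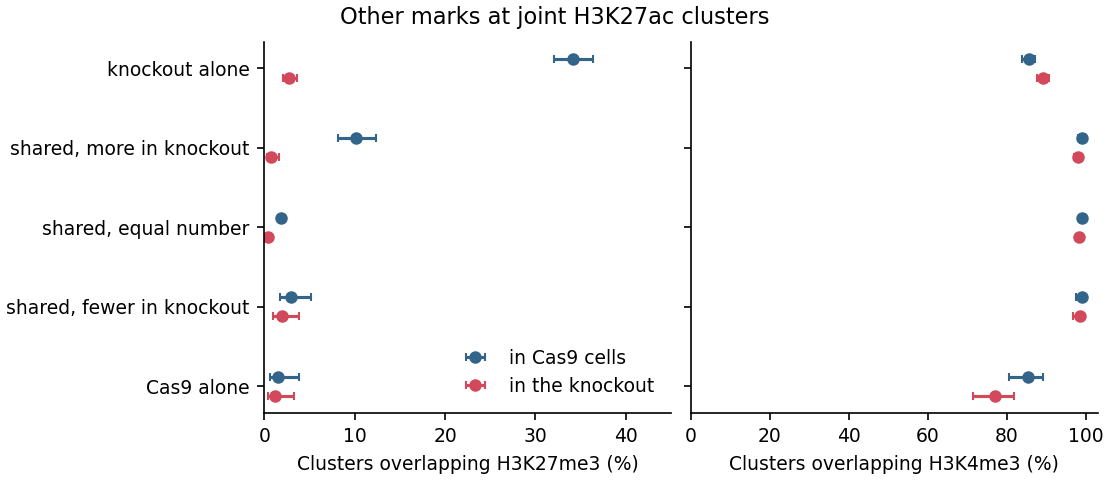
Share of joint H3K27ac clusters (percent, x axis) that overlap H3K27me3 islands (left) and H3K4me3 peaks (right) of Cas9 cells (blue) and of the knockout (red), by class of cluster, with Wilson 95% intervals. Knockout-alone clusters stand out for H3K27me3 of Cas9 cells, at 34.2%, and every class overlaps H3K4me3 in at least 77.0% of its clusters.

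Most knockout-alone clusters already had a promoter mark in the control cells. H3K4me3 peaks of Cas9 cells overlapped 85.5% of knockout-alone clusters (83.8% to 87.1%), 98.9% of shared clusters and 85.4% of Cas9-alone clusters, and H3K4me3 peaks of the knockout overlapped 89.2%, 98.3% and 77.0%. Both H3K4me3 and H3K27me3 of Cas9 cells met 512 of the 1770 knockout-alone clusters (28.9%, 26.9% to 31.1%), the combination called bivalent, although an overlap of regions does not show both marks on the same DNA molecules. Another 5.25% met H3K27me3 without H3K4me3, and 9.21% met neither mark.

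The overlap with H3K27me3 was higher for knockout-alone clusters of more peaks and for knockout-alone peaks of higher score rank. Among knockout-alone clusters it was 32.2% for those of 1 peak (29.9% to 34.5%), 48.4% for those of 2 (40.7% to 56.2%) and 73.9% for those of at least 3 (17 of 23, 53.5% to 87.5%). Longer clusters also have more room to meet an island. Single knockout-alone peaks showed the same order by score. In the upper quartile of knockout scores 25 of 49 such peaks overlapped Cas9 H3K27me3 (51.0%, 37.5% to 64.4%), in the next 42.5%, then 28.6%, and in the lowest quartile 23.4% (21.4% to 25.6%). Knockout peaks with a Cas9 partner overlapped it in 1.53%, 2.65%, 1.27% and 0.662% of cases in the same quartiles. The knockout-alone peaks at Cas9 H3K27me3 had a median width of 325 bp (307 to 344), against 244 bp (240 to 250) for those outside it.

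Knockout-alone peaks near a Cas9 peak differed from those farther away. Of the 864 that shared a joint cluster with a Cas9 peak 9.38% overlapped Cas9 H3K27me3 (7.61% to 11.5%), against 35.4% of the 1979 in other clusters (33.3% to 37.6%). Their median width was 236 bp (229 to 243), against 274 bp (266 to 282). The grouping itself bears on both values. Shared clusters met Cas9 H3K27me3 in 3.08% of cases as a whole. Of the 864 peaks 507 lay within 500 bp of a Cas9 peak, where a new peak can be one that was split. Cas9-alone peaks were at Cas9 H3K27me3 in 1.47% and 1.44% of cases in the corresponding classes.

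Shared clusters that overlapped an H3K27me3 island of Cas9 cells gained peaks in 44.4% of cases (80 of 180, 37.4% to 51.7%), against 12.6% of those that did not (11.7% to 13.4%). They lost peaks in 6.67% and 6.88% of cases. The span of a joint cluster includes its new peaks, so a gain can itself bring the island in. Measured over the span of the Cas9 peaks alone, 26.2% of clusters at an island gained (32 of 122, 19.2% to 34.7%) and 13.3% of the others did (12.4% to 14.2%). With lists of equal number the shares over the joint span were 25.8% and 6.20%, and losses were 11.0% and 11.2%.

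Seen from the islands, new acetylation peaks were mostly single. Of the 14107 H3K27me3 islands of Cas9 cells 582 held 1 knockout-alone H3K27ac peak, 76 held 2, 10 held 3 and 3 held more. The rest, by far the most islands, held none. The island with most was chr6:52099401-52237200, which spans 137.8 kb and held 8 knockout peaks and 0 Cas9 peaks. The longest was chr15:102736601-102877600, of 141.0 kb, with 6 knockout peaks and 0 Cas9 peaks. The island at chr6:127097801-127102600 held 4 within 4.80 kb, again with 0 Cas9 peaks.

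The knockout-alone clusters with most peaks held 4 each, and the 5 longest of the 6 such clusters are described. At chr6:52166906-52195429, inside the island of 137.8 kb, the 4 knockout peaks were 397, 235, 192 and 410 bp wide over 28.5 kb. H3K27me3 covered 100% of this span in Cas9 cells against 26.6% in the knockout, and 0 H3K4me3 peaks were listed there in Cas9 cells against 7 in the knockout. At chr15:102812110-102831240 the peaks were 669, 207, 195 and 207 bp wide over 19.1 kb, H3K27me3 coverage was 100% in Cas9 cells against 0 in the knockout, and H3K4me3 peaks numbered 0 and 3. These 2 clusters thus differed between the lists in all 3 marks. The cluster at chr17:63229203-63232341 was short, at 3.14 kb, with H3K27me3 over 89.1% of it in Cas9 cells and 0 in the knockout. There H3K4me3 covered 88.1% and 95.7%, so the promoter mark was listed in both cell types. At chr4:147504854-147533957 (29.1 kb) H3K27me3 covered 38.8% in Cas9 cells against 0 in the knockout, and at chr2:38194828-38207498 (12.7 kb) 43.2% and 8.67%. All 5 clusters named by this measure thus lay at least partly in Cas9 H3K27me3.

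The largest gain in a shared cluster was at chr7:19893718-19930671, which had 5 Cas9 peaks and 11 knockout peaks over 37.0 kb, or 4 and 6 sites. Each of the 5 Cas9 peaks was met by a knockout peak, and 6 knockout peaks were new. The highest-scoring peak was the same place in both lists, 360 bp wide in Cas9 cells and 330 bp in the knockout. The new peak at chr7:19904824-19905502, of 679 bp, ranked in decile 1 of the knockout list. It began 11.1 kb from the start of the cluster and overlapped the end of a Cas9 H3K27me3 island that ran from 7.28 to 11.5 kb. H3K27me3 islands covered 32.5% of the cluster in Cas9 cells and 0 in the knockout.

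At chr12:86812980-86827456 the number rose from 1 Cas9 peak of 268 bp to 6 knockout peaks, of which 1, also 268 bp wide, met the Cas9 peak. Sites there numbered 1 and 2. The 5 new peaks were 709, 298, 1012, 477 and 210 bp wide, and H3K27me3 covered 19.3% of the cluster in Cas9 cells and 0 in the knockout. At chr8:123631813-123652538 the number rose from 2 to 5 and the sites from 2 to 4, with H3K27me3 over 15.1% and 0. The other gains had no H3K27me3 island in either cell type. At chr3:89017484-89031822 (1 and 5 peaks, 1 and 2 sites) the single Cas9 peak of 1418 bp met 3 knockout peaks of 189, 777 and 253 bp, and 2 knockout peaks were new. At chr9:44127951-44152261 peaks numbered 4 and 7, and sites 4 and 4, so that every added peak lay within a site.

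The largest loss was at chr13:23626028-23677377, the largest cluster of the Cas9 list, with 12 Cas9 peaks and 6 knockout peaks over 51.4 kb, or 8 and 5 sites. All 6 knockout peaks met Cas9 peaks, 4 Cas9 peaks were alone, and the summed width was 3611 bp in Cas9 cells and 1996 bp in the knockout. No H3K27me3 island was listed in it in either cell type. At chr7:149661114-149668247 peaks numbered 4 and 1, and sites 2 and 1. The 3 unpartnered Cas9 peaks there were 193 to 241 bp wide, the remaining peak was 450 bp wide in Cas9 cells and 866 bp in the knockout, and H3K4me3 peaks numbered 4 and 0. At chr15:85499422-85504965 peaks numbered 5 and 2 but sites 2 and 2, and the third-widest peak of each list, at 2648 and 2443 bp, remained. The clusters at chr11:69475855-69495768 (5 and 2 peaks, 3 and 2 sites) and chr5:134921321-134932631 (4 and 1 peaks, 2 and 1 sites) completed the 5 largest losses, and none of the 5 held an H3K27me3 island. Peak numbers not analysed here fell beside or around the named clusters at chr7:19893718-19930671, chr12:86812980-86827456, chr13:23626028-23677377, chr6:52166906-52195429, chr15:102812110-102831240 and chr7:6681945-6683057. Between listed H3K27ac peaks of the same list 0 fell. Where a list had at most 1 peak in a cluster, this 0 was fixed by construction. That held for Cas9 numbers at chr12:86812980-86827456, chr6:52166906-52195429 and chr15:102812110-102831240, and for knockout numbers at chr7:6681945-6683057. Unlisted numbers of that list can lie inside these clusters, whose peaks were counted as new or alone.

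**Figure D5:**
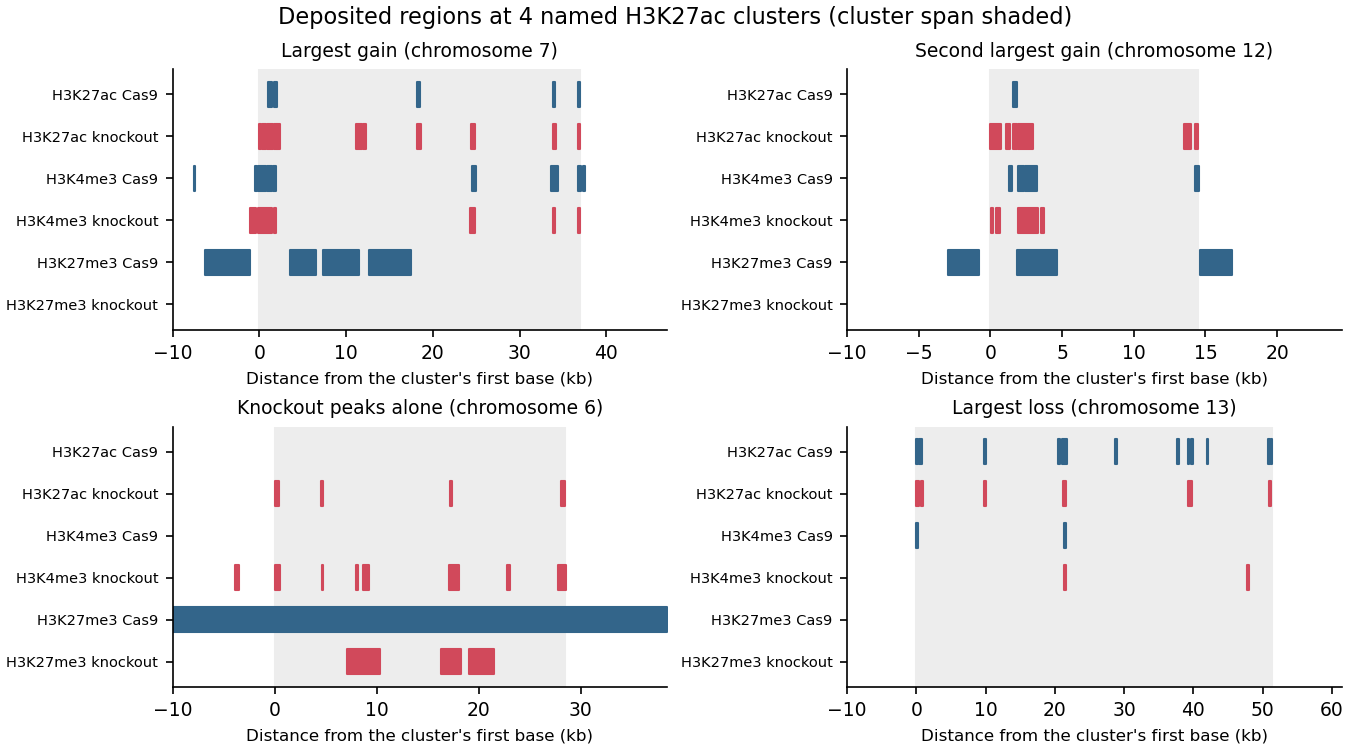
Listed regions of H3K27ac, H3K4me3 and H3K27me3 in Cas9 cells (blue) and in the knockout (red) at 4 clusters, against distance in kb from the first base of the cluster (x axis), with the span of the cluster shaded. In the panels of the 2 gains and of the knockout-alone cluster Cas9 H3K27me3 islands lie in the shaded span, while the panel of the loss, with 12 Cas9 and 6 knockout peaks, shows none.

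Cas9-alone clusters had at most 3 peaks. Those at chr17:46909797-46919906 (10.1 kb), chr19:6077012-6085318 (8.31 kb) and chr13:22126855-22133808 (6.95 kb) held 3 each. The first and second had 3 H3K4me3 peaks in each cell type, and the third had 0 in both. The cluster at chr7:30691259-30693755 held 2 peaks and had 1 H3K4me3 peak in each cell type. The cluster at chr7:6681945-6683057 held 2 peaks within 1.11 kb, and a knockout H3K27me3 island covered 100% of it, while 0 islands of Cas9 cells met it. It is one of the clusters beside which H3K27ac peak numbers were not analysed here. Among the clusters named here for gain, loss or peaks of 1 list alone, it was the only one with more H3K27me3 coverage in the knockout than in Cas9 cells.

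The other clusters with most peaks differed by at most 1 in peak number. At chr19:8787202-8816685 both lists held 7 peaks in 4 sites, with summed widths of 2911 bp in Cas9 cells and 2613 bp in the knockout, and every peak had a partner. At chr11:69793490-69814482 peaks numbered 6 and 7, with summed widths of 1958 and 2186 bp, and 1 knockout peak had no partner. At chr8:87493177-87510099 they also numbered 6 and 7, in 4 sites each, with 2705 and 3127 bp, but 3 knockout peaks and 1 Cas9 peak had no partner. Of these knockout peaks 2 formed a site that began 16.3 kb from the start of the cluster, beyond the last Cas9 peak, which ended at 11.2 kb and was the unpartnered one.

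Few H3K27ac peaks lay away from H3K4me3 of the same cells, and their share was larger in the knockout list, which is also the longer one. Peaks that met no H3K4me3 peak of the same cells numbered 328 in Cas9 cells (4.13%, 3.71% to 4.59%) and 772 in the knockout (7.63%, 7.13% to 8.17%), a ratio of 2.35 (2.07 to 2.68). They were narrow, with median widths of 237 bp (225 to 248) and 243.5 bp (236 to 250). A partner in the other list was found for 66.8% of those in Cas9 cells and for 43.9% of those in the knockout. Cas9 H3K27me3 overlapped 0.915% of the former (0.312% to 2.65%) and 6.61% of the latter (5.06% to 8.58%). In the whole knockout list it overlapped 782 of the 2843 peaks alone in it and 124 of the 7269 peaks with a partner. The share over all knockout peaks was thus no lower than among those away from H3K4me3. A joint cluster with a peak that did meet H3K4me3 held 60.1% and 55.7% of the peaks away from it. The reference differed between the lists, since each was set against H3K4me3 of its own cells. Those H3K4me3 peaks had a median width of 601 bp for Cas9 and 516 bp for the knockout. Among knockout-alone peaks 79.7% of the lowest score quartile met Cas9 H3K4me3, against 98.0% of the upper quartile. How far list length, score and reference account for the ratio of 2.35 was not tested.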

How the data were processed

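Narrow H3K27ac and H3K4me3 peaks and broad H3K27me3 islands of 2 tumour cell types, 1 library each, were analysed as the authors deposited them, with 1 score per region whose meaning is not stated. The submitters' processing notes list SICER 1.1, BWA 0.5.9-r26, R 2.14.0, SAMtools, Picard and mm9, without saying what each did. For H3K27ac peaks no caller or threshold is given in the sources used here, and read depth is unknown. The lists number their peaks, and 375 numbers of the Cas9 list and 363 of the knockout list were not analysed here. Knockout-alone peaks in an interval that holds such Cas9 numbers made up 6.82% of their class, and Cas9-alone peaks in the reverse position 3.50%.

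Overlaps, gaps and clusters were computed with Python 3.11.15, numpy 2.4.6, pandas 2.3.3 and scipy 1.17.1, and drawn with matplotlib 3.10.9. On simulated lists 6 of 6 planted quantities were recovered within 1 percent, and 0 of 24 counts differed from bedtools 2.31.1. Island ends were moved by 1 bp, since they name the last base counted from 0. Positions are mm9, counted from 1. The reference table at hand is of another build, so regions carry no gene names and no sequences. Clusters were named by a rule: the 5 with most peaks, most peaks of 1 list alone, largest gain and largest loss, ties by span, besides the 5 widest peaks of each list and the 5 pairs that widened or narrowed most (the extreme ones are described). The members, rules and alternatives were chosen with earlier results of these data known. The alternatives were equal list lengths, the upper 50% of scores, autosomes alone, removal of peaks at Cas9 antibody islands of neurospheres or at H3K4me3, an overlap of at least 50% of a peak, and joining within 5 or 25 kb. Another 2 (joining close neighbours first, and leaving out peaks beside unlisted numbers) were added after seeing the data.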

Additional observations from a re-analysis of the deposited data

How the results depend on the processing

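With 1 library per group, an unknown depth and an unstated calling threshold, list length limits every comparison of numbers, spacing and clusters, and no replicate spread could be measured. The alternatives gave 139 values, of which 61 stayed within the 95% interval of the value reported and 78 did not. All 17 values stayed within it on autosomes alone, and all 17 with peaks at unlisted numbers left out. No paired analysis was possible because the groups hold 1 library each, numbered 1 in accession order, and so share fewer than 2 replicate numbers. Equal numbers were reached by cutting the knockout list alone, which by construction favours losses over gains and longer gaps between knockout peaks. With lists of equal number the ratio of peak numbers was 1.00 by construction, the overlapped share was 83.2% for Cas9 peaks and 82.4% for knockout peaks, and the median distance to the nearest knockout peak was 34.5 kb. Clusters of at least 2 then held 34.0% of knockout peaks, joint clusters of knockout or Cas9 peaks alone made up 13.6% and 8.85%, and shared clusters with more or fewer knockout peaks 6.76% and 11.2%. In the same lists 26.8% of knockout-alone peaks shared a cluster with a Cas9 peak, and knockout-alone clusters met Cas9 H3K27me3 in 38.6% and Cas9 H3K4me3 in 89.9%. With the upper 50% of scores the overlapped shares were 92.4% and 72.9%, the width ratio 1.02, the nearest distances 77.6 and 65.4 kb, and the shares of peaks in clusters 18.1% and 20.5% (Cas9, then knockout). Knockout-alone and Cas9-alone clusters were then 24.0% and 4.73%, shared clusters with more and fewer peaks 6.43% and 2.46%, and knockout-alone peaks beside Cas9 peaks 14.6%. Cas9 H3K27me3 met 18.1% of knockout-alone and 1.16% of shared clusters, and Cas9 H3K4me3 met 96.9% and 99.4%. Without peaks at Cas9 antibody islands of neurospheres, 90.4% of Cas9 peaks were overlapped, the nearest distances were 30.8 and 27 kb, clusters held 37.7% and 40.1% of peaks, Cas9-alone clusters were 4.25%, and shared clusters with more knockout peaks 12.5%. Knockout-alone peaks beside Cas9 peaks were then 28.1%, Cas9 H3K27me3 met 29.5% of knockout-alone and 2.56% of shared clusters, and Cas9 H3K4me3 met 98.6% of shared clusters. Without peaks at H3K4me3 (328 and 772 peaks left) the ratio of numbers was 2.35, the nearest distances 747.8 and 257.6 kb, and the shares in clusters 19.2% and 21.1%. Knockout-alone and Cas9-alone clusters were then 63.4% and 14.7%, shared clusters with more and fewer peaks 17.8% and 5.75%, knockout-alone peaks beside Cas9 peaks 9.72%, and knockout-alone clusters at Cas9 H3K27me3 8.73%. With close neighbours joined into sites first, 93.8% and 74.5% were overlapped, the width ratio was 1.07, the nearest distances were 51.7 and 45.3 kb, and clusters held 16.8% and 18.4% of sites. Shared clusters with more and fewer sites were then 4.73% and 1.85%, and 15.5% of knockout-alone sites lay beside Cas9 sites. When at least 50% of a peak had to be covered, 89.6% and 67.7% were overlapped, and 39.5% of knockout-alone peaks shared a cluster with a Cas9 peak. Joining within 5 kb placed 34.6% and 36.6% of peaks in clusters, gave 11.4% of shared clusters more knockout peaks, and put 24.3% of knockout-alone peaks beside Cas9 peaks, with Cas9 H3K27me3 at 2.26% and H3K4me3 at 98.6% of shared clusters. Joining within 25 kb gave 50.3% and 53.2% in clusters, 21.2% and 2.74% of clusters with knockout or Cas9 peaks alone, 17.1% and 7.59% of shared clusters with more and fewer peaks, and 39.7% of knockout-alone peaks beside Cas9 peaks, with H3K27me3 at 5.12% and H3K4me3 at 99.2% of shared clusters. Apart from the effects of construction named here, the cause of each shift was not tested.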
